A study of Mus musculus with 24 samples.

Results

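The genes described here are the writers, erasers and readers of N6-methyladenosine (m6A, a methyl mark on adenosines of messenger RNA) together with the enzymes that supply and clear the methyl donor, S-adenosylmethionine. They are 33 named genes of 25239, chosen by symbol for their known roles, and all 33 were found. They comprise 8 subunits of the methyltransferase complex and 5 genes grouped as stand-alone methyltransferases, among which Trmt112 is a partner protein. The others are 2 demethylases, 5 YTH domain readers, 8 other readers and effectors, and 5 methyl supply genes. All listed m6A sites of the 33 genes belong to the set, namely 158 of 52025 sites in the 8-week knockout table, 175 of 52315 in the 28-week knockout table and 158 of 51883 in the wild-type age table.

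Liver of 12 C57BL/6 mice was sequenced in 24 libraries, each animal giving an input library and one enriched with an m6A antibody. The 4 groups of 3 animals were wild type at 8 weeks, ApoF gene knockout at 8 weeks, wild type at 28 weeks and ApoF gene knockout at 28 weeks. ApoF is an apolipoprotein made by the liver, and the series asked how its loss bears on liver lipid metabolism and on the m6A methylome. The knockout is labelled by genotype alone, and the deleted part, the sexes and the number of founder lines are not stated in the labels.

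In mammals the m6A mark is laid down on nascent messenger RNA by a heterodimer of Mettl3 and Mettl14 held in a larger complex, can be taken off by the demethylases Fto and Alkbh5, and is bound by YTH proteins that steer splicing, export, translation and decay. Every such methylation uses S-adenosylmethionine and releases S-adenosylhomocysteine, which inhibits methyltransferases until Ahcy cleaves it. The liver is the main site of this cycle, where Mat1a makes the donor and Gnmt spends its excess on glycine.

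Reads at listed sites ranged from 72868528 to 90420947 for a group and library type. Mean normalized counts, which are already scaled and show no depth, added up to 39824284.7 at the lowest and 41989204.5 at the highest. Apof itself had 14414 normalized counts in the 8-week knockout and 23454 in wild type (log2 ratio -0.70 ± 0.11), and 11839 and 23860 at 28 weeks (-1.01 ± 0.16), by the authors' deposited tables. Wild-type livers at 8 weeks held almost no Y-linked RNA. Ddx3y, a Y-linked helicase gene, had 0.178 normalized counts in that group against 2338 in the knockout, and Kdm5d 0.178 against 935.5, so sex and genotype cannot be told apart in the 8-week comparison, nor sex and age in wild type. The X-linked RNA Xist had 10192 counts in the 8-week knockout and 21017 in wild type, and 8903 and 8747 at 28 weeks. Ddx3y had 2189 and 2232 counts at 28 weeks (-0.03 ± 2.28) by the authors' deposited table. Groups other than 8-week wild type thus held both Y-linked RNA and Xist. Whether they mix sexes, and how sex enters their SEs, was not tested. Of 10 hepatocyte markers none was at 0, and their summed level was 6816553 in the 8-week knockout and 4794011 in wild type. Of the 10, 2 were called higher, Alb and Fgb, 3 had negative ratios, and Alb alone went from 3072557 to 4707569. Of 9 tested stellate cell and fibroblast markers 3 collagens were higher and 1 gene lower in the 8-week knockout (summed level 27116 against 15742), and of 5 tested erythroid markers 2 were higher (12799 against 3548). All 9 tested lymphocyte markers had negative ratios in the 8-week knockout (median -0.84, summed level 917 against 1538), and 1 of them, Cd3g, was called. At 28 weeks the summed levels were 4623963 and 4809441 for hepatocytes and 9886 and 11519 for stellate cells. Of 10 sinusoidal endothelial markers 2 were called lower in the 28-week knockout, Stab1 and Stab2, and all 10 ratios were negative (median -0.40, summed level 14601 against 19880). With age in knockout 6 of 9 tested stellate markers were called lower (10463 against 25899), as were 3 of 10 sinusoidal endothelial markers (15457 against 19505). In that comparison 1 of 10 hepatocyte and 1 of 5 tested erythroid markers were also called lower. With age in wild type 2 of 10 hepatocyte markers were called higher and 1 lower. Of 5 tested cholangiocyte markers 1 was called higher there, as was 1 of 4 tested erythroid markers. All 10 Kupffer cell markers had negative ratios with age in wild type (median -0.19), and 0 were called. In bulk liver, fewer cells of a type and less RNA per cell cannot be told apart.

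RNA values below are log2 ratios ± SE as DESeq2 gave them for groups of 3 animals, with a positive sign for higher values in knockout or at 28 weeks, and a gene is called where the adjusted p is under 0.05. Levels are group means of normalized counts, worked out from the mean over both groups and the ratio, and the tables give no value per animal, so the SE is the only view of the spread between animals. Each table was normalized on its own, and levels of different genes are not compared because they are not per length. Neighbouring comparisons share animals, the 8-week knockout livers, for example, serving both in the comparison with wild type and in that with 28 weeks.

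Among the 33 members, RNA of the 28 writers, erasers and readers passed no test, while the methyl supply gene Ahcy did. Igf2bp3, a reader outside the members that was called, is given below with the reader relatives. In the authors' deposited table of the 8-week comparison 1 of the 33 members was called, against 4.98% of all 15214 genes tested. At 28 weeks 0 of 33 were called, against 0.257% of 14391 genes by the authors' deposited table, with 1 member at an unadjusted p under 0.05. With age in wild type 0 of 33 were called, against 4.24% of 13474 genes by the authors' deposited table, and 3 members had an unadjusted p under 0.05. With age in knockout 1 of 33 was called, against 4.49% of 14798 genes by the authors' deposited table. The 28 members outside methyl supply had log2 ratios between -0.35 and 0.35 at 8 weeks, between -0.24 and 0.40 at 28 weeks, between -0.53 and 0.23 with age in wild type and between -0.30 and 0.33 with age in knockout. The 95% intervals of all 28 lay inside a 2-fold change either way in each comparison, and those of 20, 24, 26 and 17 of them inside a 1.5-fold change, in the same order. Where an interval includes 0, changes inside it cannot be told from none here. The interval left out 0, with no call, for Pcif1 at 8 weeks (-0.68 to -0.01) and Hnrnpc at 28 weeks (0.17 to 0.64). The same held with age for Rbm15b in wild type (-0.92 to -0.14) and Hnrnpc in knockout (0.02 to 0.56).

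**Figure D1:**
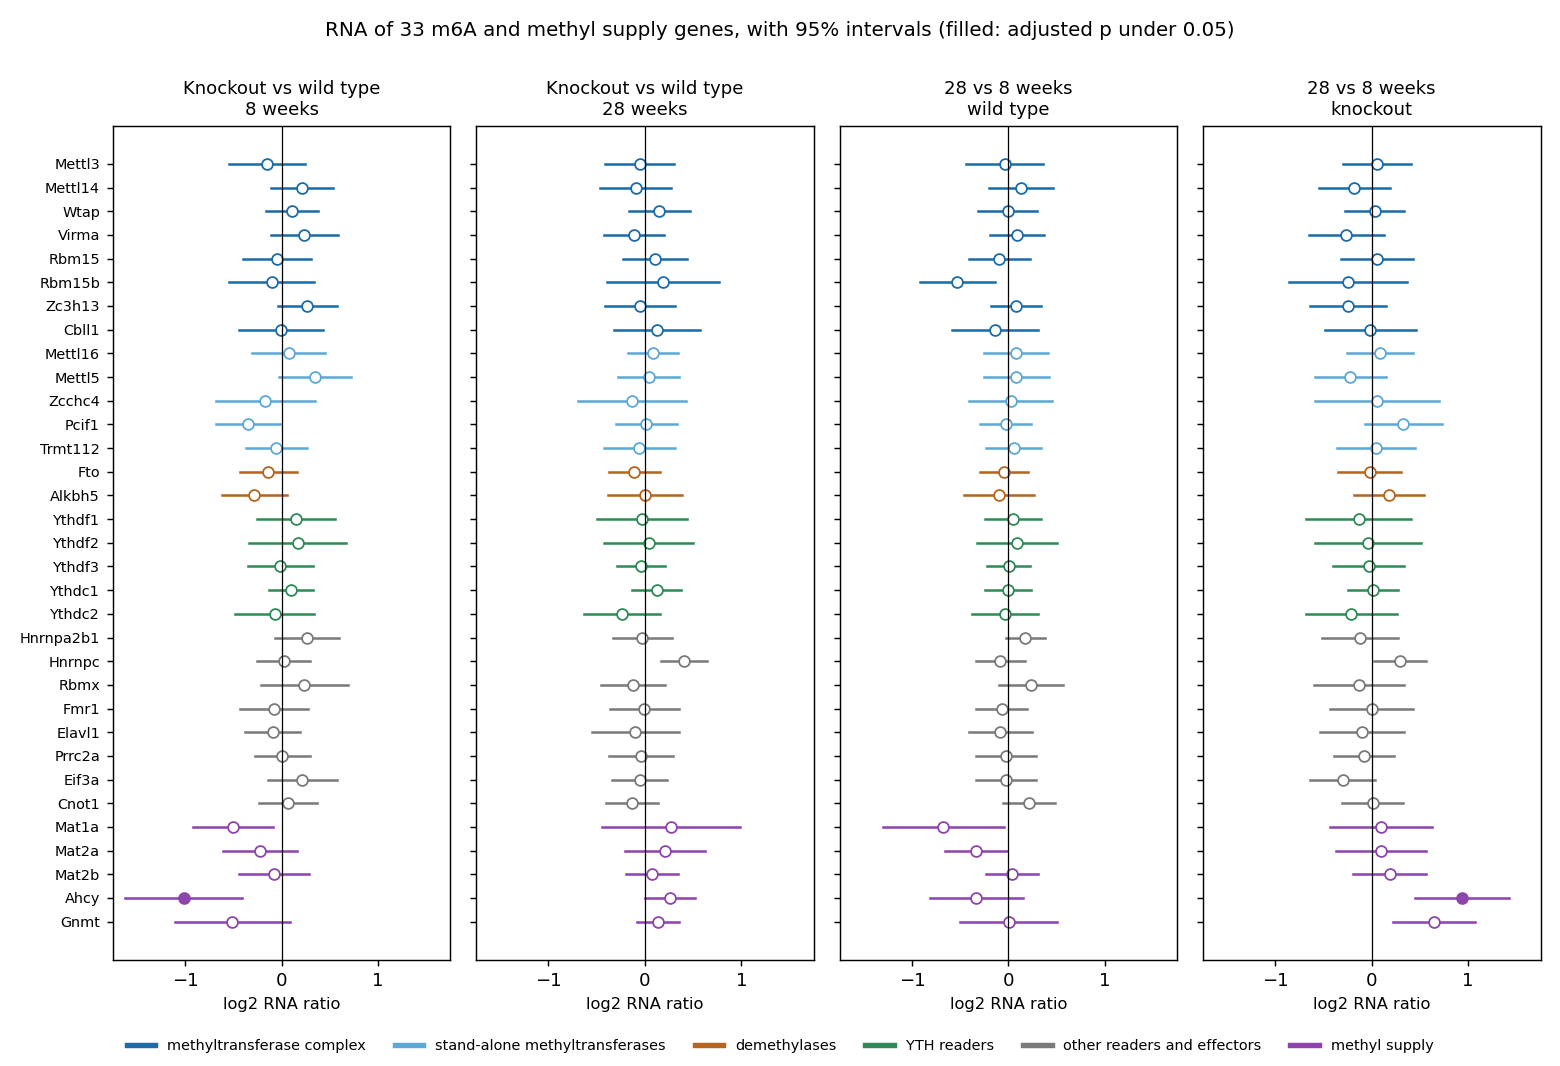
Log2 RNA ratios of the 33 members (rows, coloured by role) in the 4 comparisons, with 95% intervals from the DESeq2 SE over 3 animals per group; filled points have an adjusted p under 0.05. Ahcy is the one gene with filled points, at -1.01 in the 8-week and at 0.94 in the knockout age comparison, while the writers, erasers and readers stay between -0.53 and 0.40.

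Mettl3, the catalytic subunit of the complex, had 571 normalized counts at 8 weeks in knockout against 633 in wild type, and 535 and 556 at 28 weeks. Its ratios by the authors' deposited tables were -0.15 ± 0.20 (adjusted p = 0.797) and -0.06 ± 0.18 (adjusted p = 0.9998), and with age -0.04 ± 0.20 in wild type and 0.05 ± 0.18 in knockout. The 8-week interval ran from -0.54 to 0.24. Mettl14, which positions the RNA for Mettl3, had 777 knockout counts against 673 wild-type counts at 8 weeks (0.21 ± 0.16, adjusted p = 0.588) and 619 and 663 at 28 weeks (-0.10 ± 0.19) by the authors' deposited tables. With age it stood at 0.13 ± 0.17 in wild type and -0.18 ± 0.19 in knockout by the authors' deposited tables. Wtap, the adaptor that keeps the pair in nuclear speckles, stood at -0.01 ± 0.15 in wild type and 0.03 ± 0.16 in knockout over age, and at 0.11 ± 0.14 and 0.15 ± 0.16 in the 8- and 28-week knockout by the authors' deposited tables. None of these differences passed the test.

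The outer subunits likewise did not pass. Virma, the scaffold, had 1959 counts in the 8-week knockout and 1661 in wild type (0.24 ± 0.18), and Zc3h13, which retains the complex in the nucleus, 4422 and 3670 (0.27 ± 0.15), by the authors' deposited table. At 28 weeks both ratios were negative, at -0.11 ± 0.16 for Virma and -0.05 ± 0.19 for Zc3h13 by the authors' deposited table. Rbm15 and Rbm15b, which recruit the complex to chosen RNAs, stood at -0.05 ± 0.18 and -0.10 ± 0.22 at 8 weeks by the authors' deposited table. Rbm15b had the lowest ratio outside methyl supply, with 567 counts at 28 weeks against 817 at 8 weeks in wild type (-0.53 ± 0.20, p = 0.00793, adjusted p = 0.118) by the authors' deposited table. Cbll1, a ubiquitin ligase of the complex, had 201 knockout counts against 202 wild-type counts at 8 weeks.

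Of the stand-alone enzymes, Mettl5, which methylates the small subunit ribosomal RNA, had the highest ratio of any member at 8 weeks, with 694 knockout counts against 546 wild-type counts (0.35 ± 0.19, adjusted p = 0.348) by the authors' deposited table. Pcif1, which methylates the adenosine next to the cap, had the lowest outside methyl supply, with 532 and 675 counts (-0.35 ± 0.17, p = 0.0429, adjusted p = 0.278) by the authors' deposited table. Trmt112, the partner that stabilises Mettl5, lay within -0.06 and 0.06 in all 4 comparisons. Mettl16, which methylates a spliceosomal small nuclear RNA and a hairpin in the Mat2a transcript, stood between 0.07 and 0.09, and Zcchc4, which methylates the large subunit ribosomal RNA, between -0.17 and 0.05.

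Both demethylases were on the lower side in the knockout at 8 weeks without passing, and at 28 weeks Alkbh5 had nearly equal counts in both groups. Fto had 2113 knockout counts against 2323 wild-type counts at 8 weeks (-0.14 ± 0.15, adjusted p = 0.735), and 1877 and 2026 at 28 weeks (-0.11 ± 0.14, adjusted p = 0.9998), by the authors' deposited tables. Alkbh5 had 3677 and 4468 counts at 8 weeks (-0.28 ± 0.17, adjusted p = 0.430) and 3748 and 3749 at 28 weeks by the authors' deposited tables. With age, Fto stood at -0.04 ± 0.13 in wild type and -0.02 ± 0.17 in knockout, and Alkbh5 at -0.10 ± 0.19 and 0.18 ± 0.19, by the authors' deposited tables.

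The 5 YTH readers had ratios between -0.07 and 0.17 at 8 weeks and between -0.24 and 0.12 at 28 weeks. Ythdf2, the reader that speeds decay, had 832 counts in the 8-week knockout and 741 in wild type (0.17 ± 0.26), and Ythdc1, the nuclear reader, 4198 and 3922 (0.10 ± 0.12), by the authors' deposited table. Ythdc2, a helicase with a YTH domain, had the lowest ratio of any member at 28 weeks, with 416 and 491 counts (-0.24 ± 0.20, adjusted p = 0.9998) by the authors' deposited table. Among the other readers, Hnrnpc, which binds sites that m6A unfolds, had the highest ratio of any member at 28 weeks, with 6053 knockout counts against 4572 wild-type counts (0.40 ± 0.12, p = 0.000686, adjusted p = 0.153) by the authors' deposited table. At 8 weeks its ratio was 0.02 ± 0.14, and with age in knockout 0.29 ± 0.14 (adjusted p = 0.255), by the authors' deposited tables. Eif3a, a subunit of the translation initiation factor that can bind m6A in leader sequences, had 43310 counts in the 8-week knockout and 37316 in wild type (0.21 ± 0.18), and Hnrnpa2b1, a nuclear reader, 24046 and 20002 (0.27 ± 0.17), by the authors' deposited table. Cnot1, the deadenylase scaffold that Ythdf2 recruits, stood at 0.07 ± 0.15 and -0.13 ± 0.14 at 8 and 28 weeks by the authors' deposited tables. Elavl1, which stabilises bound RNA, Fmr1, a translational repressor, Prrc2a and Rbmx, a splicing factor, lay between -0.13 and 0.24 in all 4 comparisons; Rbmx can share reads with its close relative Rbmxl1, so its values are uncertain.

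With age the ends of the range lay with other members. In wild type the 3 highest ratios belonged to Rbmx (0.23 ± 0.17, adjusted p = 0.586), Cnot1 (0.21 ± 0.14, adjusted p = 0.510) and Hnrnpa2b1 (0.17 ± 0.10, adjusted p = 0.457) by the authors' deposited table. In knockout Pcif1 followed Ahcy and Gnmt from 508 to 638 counts (0.33 ± 0.20, adjusted p = 0.457), while Eif3a (-0.30 ± 0.17, adjusted p = 0.411), Virma (-0.26 ± 0.20, adjusted p = 0.582) and Rbm15b (-0.25 ± 0.31, adjusted p = 0.798) were at the low end by the authors' deposited table.

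At 28 weeks the member ratio farthest from 0 was that of Hnrnpc (0.40), and in the other comparisons it was that of a methyl supply gene. All 5 methyl supply genes were lower in the knockout at 8 weeks, with a median ratio of -0.50 against 0.01 over all genes tested. At 28 weeks all 5 were higher, with a median of 0.21 against 0.01. Only Ahcy at 8 weeks passed the test among these 10 ratios. With age in knockout all 5 ratios were again positive (median 0.18), and in wild type 3 of 5 were negative (median -0.33). Since the 8-week knockout livers serve in 2 of these comparisons and the 8-week wild-type livers in 2, the directions are not independent of each other.

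Ahcy, which cleaves S-adenosylhomocysteine, had 22609 normalized counts in the 8-week knockout and 45655 in wild type, or 49.5% of wild type. The ratio was -1.01 ± 0.31 (p = 0.00106, adjusted p = 0.0271) by the authors' deposited table, with a 95% interval from -1.62 to -0.41. At 28 weeks the order of the groups was the opposite, with 39129 knockout counts against 32667 wild-type counts (0.26 ± 0.13, adjusted p = 0.890) by the authors' deposited table. From 8 to 28 weeks Ahcy went from 21600 to 41428 counts in knockout (0.94 ± 0.25, adjusted p = 0.0077) and from 43030 to 34217 in wild type (-0.33 ± 0.25, adjusted p = 0.603) by the authors' deposited tables. The 8-week knockout held the lowest Ahcy mean of the 4 groups.

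Gnmt, the glycine methyltransferase that consumes surplus donor, had 34838 counts in the 8-week knockout and 49572 in wild type (-0.51 ± 0.30, adjusted p = 0.406) by the authors' deposited table. With age in knockout it went from 33281 to 52122 (0.65 ± 0.22, p = 0.00271, adjusted p = 0.0567), just outside the threshold, and in wild type from 46726 to 46842 (0.00 ± 0.26), by the authors' deposited tables. Mat1a, the synthetase of adult liver, had 78192 counts in the 8-week knockout and 110917 in wild type (-0.50 ± 0.21, p = 0.0166, adjusted p = 0.165) by the authors' deposited table. At 28 weeks Mat1a had 75274 and 62554 counts (0.27 ± 0.37), and with age in wild type it had the lowest ratio of any member, from 104539 to 65497 counts (-0.67 ± 0.32, p = 0.0356, adjusted p = 0.284), by the authors' deposited tables. Mat2a, the synthetase of growing and non-hepatic cells, stood at -0.23 ± 0.19 at 8 weeks, 0.21 ± 0.21 at 28 weeks and -0.34 ± 0.16 (adjusted p = 0.296) with age in wild type and 0.09 ± 0.24 in knockout by the authors' deposited tables. Mat2b, its regulatory subunit, lay between -0.08 and 0.18 in all 4 comparisons.

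**Figure D2:**
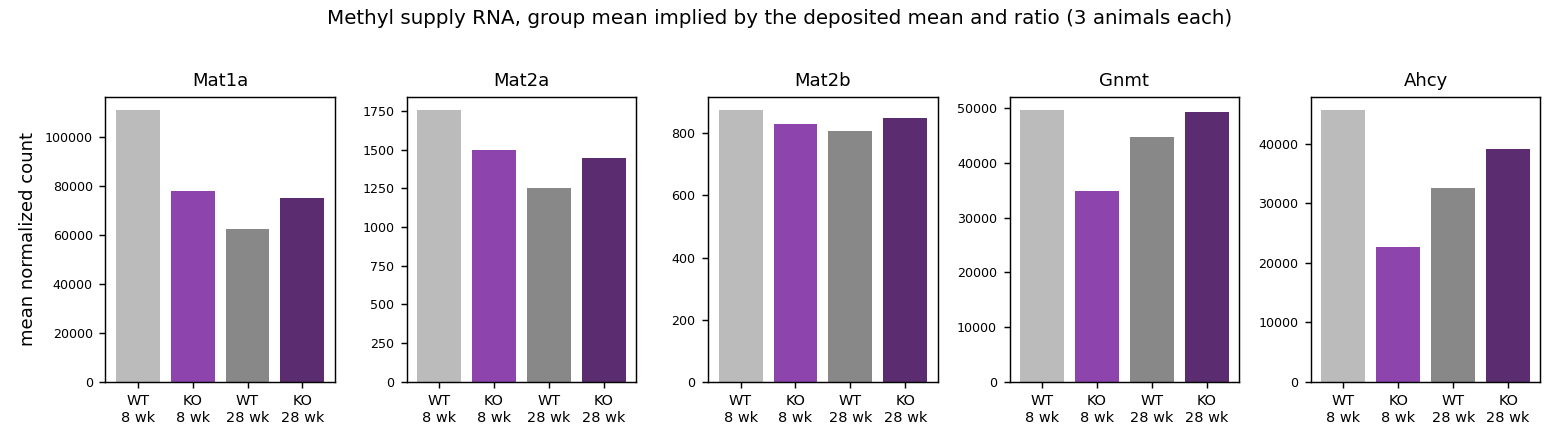
Mean normalized counts of the 5 methyl supply genes in the 4 groups of 3 animals, each panel with its own linear axis from 0; the 8- and 28-week pairs come from separately normalized tables, and the SE belongs to the ratios and is not drawn. Ahcy is lowest in the 8-week knockout, at 22609 against 45655 in wild type, and in the 28-week pair the knockout bar is the higher one in every panel.

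The interaction of genotype and age was tested as the difference of the knockout ratio at 28 weeks and that at 8 weeks, whose animals are separate. Of the 33 members 1 was called, Ahcy, against 1.58% of 14278 genes. For Ahcy the Wald test on the DESeq2 SEs gave a difference of 1.27 ± 0.34 (adjusted p = 0.0175). Next came Hnrnpc at 0.38 ± 0.18 (adjusted p = 0.390), Gnmt at 0.65 ± 0.32 (adjusted p = 0.411) and Mat1a at 0.77 ± 0.42 (adjusted p = 0.487). For Mettl3 the difference was 0.09 ± 0.27, for Mettl14 -0.31 ± 0.25, for Fto 0.03 ± 0.20 and for Alkbh5 0.28 ± 0.26, with adjusted p between 0.727 and 0.984. The 8-week ratio in this difference carries the lack of Y-linked RNA in wild type and the marker calls given above. These were 2 of 10 hepatocyte, 4 of 9 stellate, 2 of 5 erythroid and 1 of 9 lymphocyte markers. The rise of Ahcy with age in knockout comes with 6 lower stellate and 3 lower sinusoidal endothelial markers. In that comparison 1 hepatocyte and 1 erythroid marker were also lower. The part of all these differences in the Ahcy results was not tested.

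Gm4737, which the RefSeq gene table lists under a synonym that Ahcy also carries, had values close to those of Ahcy, and the split of reads between the 2 genes is uncertain. It had 8132 counts in the 8-week knockout and 15883 in wild type (-0.97 ± 0.31, adjusted p = 0.0389) by the authors' deposited table, and 13803 and 11585 at 28 weeks (0.25 ± 0.14, adjusted p = 0.935) by the authors' deposited table. With age in knockout it went from 7769 to 14615 (0.91 ± 0.25, adjusted p = 0.0112) by the authors' deposited table, and its interaction was 1.22 ± 0.34 (adjusted p = 0.0273). Ahcyl1 and Ahcyl2, relatives without the same role in clearance, passed no test in any of the 4 comparisons, with 0.24 ± 0.16 and 0.13 ± 0.25 at 8 weeks by the authors' deposited table. Gm4737 was looked up after the Ahcy values were seen. Ahcyl1 and Ahcyl2 are also among the genes of the methionine and one-carbon cycle followed below, and were singled out here after those values were seen.

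Beyond the 5 supply genes, 31 genes of the methionine and one-carbon cycle were followed. At 8 weeks 1 was higher, 1 was lower and 29 did not pass, with a median ratio of 0.01. Of all 15214 genes tested 4.98% were called. Mthfd2, a mitochondrial folate enzyme of growing cells, rose from 28.0 to 155 counts (2.47 ± 0.65, adjusted p = 0.00639), and Shmt1, the cytosolic serine hydroxymethyltransferase, fell from 9553 to 6524 (-0.55 ± 0.14, adjusted p = 0.0045), by the authors' deposited table. At 28 weeks 0 of the 31 passed, with 2 at an unadjusted p under 0.05. With age in wild type Bhmt, which remakes methionine from betaine, rose from 85928 to 243588 counts (1.503 ± 0.16, adjusted p = 1.49e-16) by the authors' deposited table. With age in knockout Cth, which releases cysteine from cystathionine, rose from 10388 to 21021 (1.02 ± 0.24, adjusted p = 0.00129) by the authors' deposited table. Each was the only call of the list in its comparison.

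Other users of the methyl donor were followed beside the members. At 8 weeks Tpmt, the thiopurine methyltransferase, rose from 870.3 to 1832 counts (1.07 ± 0.25, adjusted p = 0.00116) and Dnmt3a, a DNA methyltransferase, from 1603 to 2831 (0.82 ± 0.25, adjusted p = 0.0235), by the authors' deposited table. With age in knockout 2 of 13 tested genes fell, Inmt, an indole methyltransferase (-0.97 ± 0.29, adjusted p = 0.0248), and Dnmt3a (-0.80 ± 0.20, adjusted p = 0.00472), by the authors' deposited table. At 28 weeks 0 of 13 passed in DESeq2, with 3 at an unadjusted p under 0.05.

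Partners of the readers and writers were followed as well. Of all genes tested, 4.98% of 15214 were called at 8 weeks and 4.49% of 14798 with age in knockout. Of 12 CCR4-NOT genes 1 passed at 8 weeks, Tob1, an adaptor of the deadenylase, which fell from 6304 to 3118 counts (-1.02 ± 0.23, adjusted p = 0.000892) by the authors' deposited table. Of 9 exon junction genes 1 passed at 8 weeks, Pnn, at 0.39 ± 0.11 (adjusted p = 0.0191) by the authors' deposited table. No eIF3 subunit (12 or 13 tested) and none of 6 Trmt112 partners was called by DESeq2 in any of the 4 comparisons, with 0 eIF3 subunits and at most 1 Trmt112 partner at an unadjusted p under 0.05. Of 19 tested reader relatives 1 was called at 8 weeks and the same gene with age in knockout, Igf2bp3, an m6A reader of fetal tissue. It had 851 counts in the 8-week knockout against a wild-type level of 16.7 (5.67 ± 0.35, adjusted p = 4.55e-54), and 24.4 in the 28-week against 812 in the 8-week knockout (-5.06 ± 0.36, adjusted p = 1.46e-40), by the authors' deposited tables. At 28 weeks Igf2bp3 had 23.1 counts in knockout and 18.2 in wild type (0.35 ± 0.60) by the authors' deposited table, so that the 8-week knockout was the 1 group of 4 with a high level.

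The m6A level of a site is given as log2 of IP over input reads summed over the 3 animals of a group, with 0.5 added to each sum, relative to the totals of all listed sites. It is a relative ratio, not a share of methylated molecules, and the reads are summed, so it has no spread between animals. A negative level is a lower IP over input than that of the totals. In each of the 4 groups the median was lowest at methyl supply sites and next lowest at demethylase sites, and it was highest at sites of the methyltransferase complex at 8 weeks and of the YTH readers at 28 weeks. Sites of the methyltransferase complex had median levels of 0.38 (wild type, 8 weeks), 0.52 (knockout, 8 weeks), 0.44 (wild type, 28 weeks) and 0.39 (knockout, 28 weeks). YTH readers had 0.22, 0.51, 0.46 and 0.40 in the same order, and stand-alone methyltransferases 0.14, 0.12, 0.14 and 0.12. Demethylase sites lay lower, at -0.34, -0.21, -0.33 and -0.31, and methyl supply sites lowest, at -0.62, -0.52, -0.57 and -0.57. Other readers had -0.12, 0.01, -0.09 and -0.06. The median of all listed sites was 0.10, 0.15, 0.12 and 0.11.

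**Figure D3:**
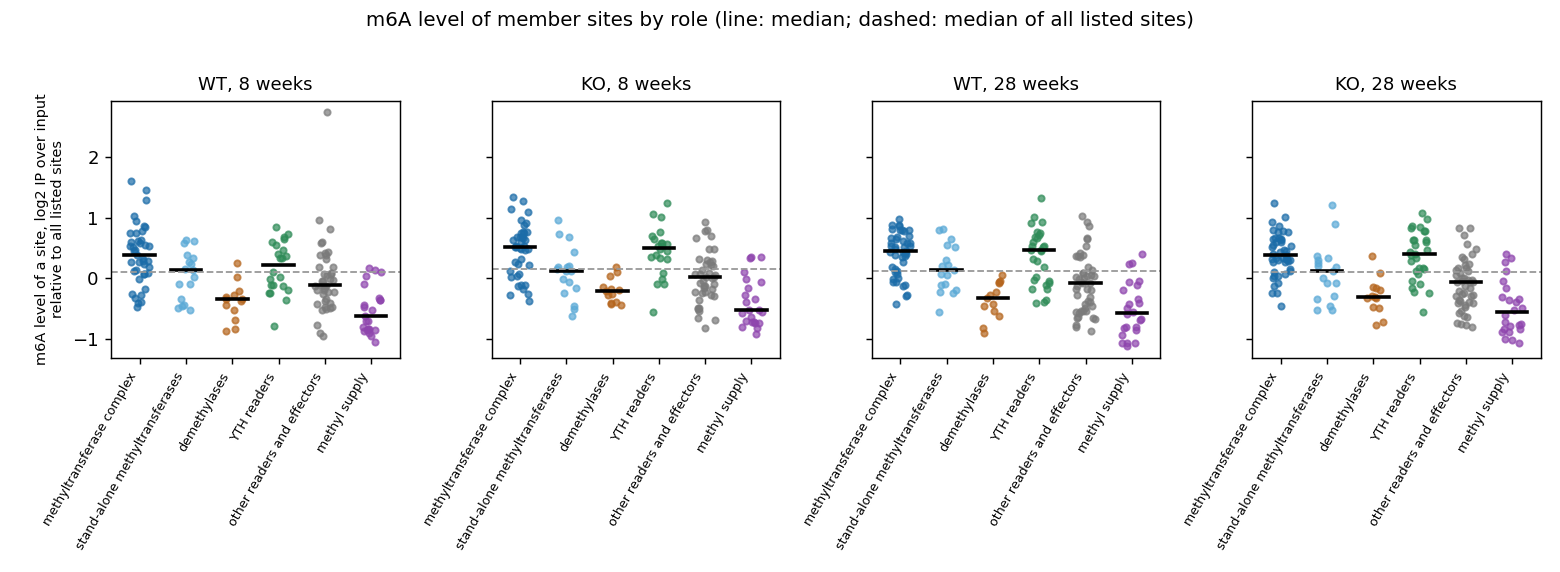
m6A level of each listed member site (points) by role in the 4 groups, as log2 IP over input relative to all listed sites; black lines are medians of a role and dashed lines the median of all listed sites. Sites of the methyltransferase complex and the YTH readers lie mostly above the dashed line and those of methyl supply mostly below it, for example 0.38, 0.22 and -0.62 in wild type at 8 weeks.

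Over all sites of a gene in wild type at 8 weeks, Eif3a had the highest level (0.94, from 63816 input reads), followed by Ythdc1 (0.77), Zc3h13 (0.74) and Hnrnpc (0.71). Gnmt had the lowest (-0.96, from 84524 input reads), then Mat1a and Ahcy (both -0.63). Over these genes the IP held fewer reads than input in that group. The sums were 42776 over 84524 for Gnmt, 70244 over 110312 for Mat1a and 17065 over 26797 for Ahcy. Whether their sites carry m6A above background was not tested. Gnmt stayed lowest and Eif3a highest in the other 3 groups, with Gnmt at -0.81, -0.91 and -0.88 and Eif3a at 0.78, 1.01 and 0.81 in the 8-week knockout, 28-week wild type and 28-week knockout. Mettl3 was near 0 (-0.16, 0.04, -0.05 and -0.01 in wild type and knockout at 8 weeks, then at 28 weeks), whereas Mettl14 lay at 0.50, 0.54, 0.47 and 0.46. The transcript of Fto lay at -0.35, -0.21, -0.18 and -0.26, and that of Alkbh5 at -0.24, -0.04, -0.15 and -0.03.

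Differences at single sites are the authors' log2 values of IP over input between groups, which include an offset per site. The SE implied by the deposited p equalled the counting error of the summed reads (median ratio 1.001 over 30844 sites at 8 weeks, 5th to 95th percentile 1 to 1.02), so that the p holds no spread between animals and calls follow depth. Of sites with at least 2000 input reads in the smaller group, 34.8%, 26.7% and 34.1% of all were called in the 8-week, 28-week and wild-type age tables, and 10 of 21, 9 of 24 and 9 of 19 of member sites. The ± at a site below is that counting error. Input depth at tested sites, as the median of the smaller group's sum, was 682 reads for members and 473 for all sites at 8 weeks, 735 and 720 at 28 weeks, and 653 and 625 with age in wild type. A tested site was available for 29, 29 and 30 of the 33 members.

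At 8 weeks 16 of 97 tested member sites were called (16.5%), against 10.9% of all 25727 tested sites by the authors' deposited table. In the knockout 11 were higher and 5 lower, against 5.52% and 5.43% of all tested sites. The 16 lay in 13 genes, and their median absolute difference was 0.15. On 1 scale for all sites, 18 member sites were called against 11.8% of all, 13 of the 16 among them, and all 16 kept their sign. All 6 called methyl supply sites were higher in the knockout, while the 3 called sites of the methyltransferase complex were lower, of which on 1 scale the Virma site passed (adjusted p = 0.00128) and those of Wtap and Zc3h13 did not (adjusted p = 0.279 and 0.132). No site of the stand-alone methyltransferases (4 tested) or the demethylases (10 tested) was called.

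Among the called supply sites, the 3 in Mat1a differed by 0.09 ± 0.02 (adjusted p = 7.74e-05), 0.10 ± 0.03 (adjusted p = 0.00331) and 0.12 ± 0.02 (adjusted p = 2.97e-07) by the authors' deposited table. At the last of these the 8-week knockout had 14509 IP over 19211 input reads and wild type 17422 over 28861. Gnmt had 2 called sites at 0.09 ± 0.02 (adjusted p = 1.28e-04) and 0.10 ± 0.02 (adjusted p = 0.00115), and Ahcy 1 of its 4 listed sites at 0.11 ± 0.03 (adjusted p = 0.00476), by the authors' deposited table. The Ahcy site had 6306 IP over 7416 input reads in knockout and 10431 over 14747 in wild type. At each of these 6 sites the input sum was smaller in knockout than in wild type, as the RNA ratios of the 3 genes were negative, and the part of the input in these differences was not tested.

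Among called member sites the highest differences were in Elavl1, an RNA-stabilising reader, at 0.79 ± 0.23 (168 IP over 170 input reads in knockout, 118 over 232 in wild type, adjusted p = 0.00779), and Ythdc2, at 0.54 ± 0.17 (371 over 267 against 267 over 292, adjusted p = 0.0165), by the authors' deposited table. Cnot1 (0.34 ± 0.11, adjusted p = 0.0191) and Ythdf3 (0.26 ± 0.09, adjusted p = 0.034) followed by the authors' deposited table, then Fmr1 (0.17 ± 0.05, adjusted p = 0.0143). The lowest value was a shallow site in Wtap, deposited at -2.22 ± 0.58 from 24 IP over 27 input reads in knockout and 30 over 18 in wild type (adjusted p = 0.00319). The reads of that Wtap site give -0.89 with no scaling and did not pass on 1 scale (-1.02, adjusted p = 0.279), and its deposited value holds an offset of -1.33. The Zc3h13 site below also turned sign with no scaling, to 0.03. Lower and deep were Virma (-0.24 ± 0.06, adjusted p = 0.00143), Ythdc1 (-0.19 ± 0.04, adjusted p = 9.84e-05), Eif3a (-0.14 ± 0.01, adjusted p = 3.68e-42) and Zc3h13 (-0.13 ± 0.05, adjusted p = 0.0468) by the authors' deposited table. The deepest sites of Mettl3 (0.02 ± 0.14), Mettl14 (0.05 ± 0.11), Wtap (0.09 ± 0.07), Fto (0.09 ± 0.08) and Alkbh5 (0.08 ± 0.05) were not called by the authors' deposited table.

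**Figure D4:**
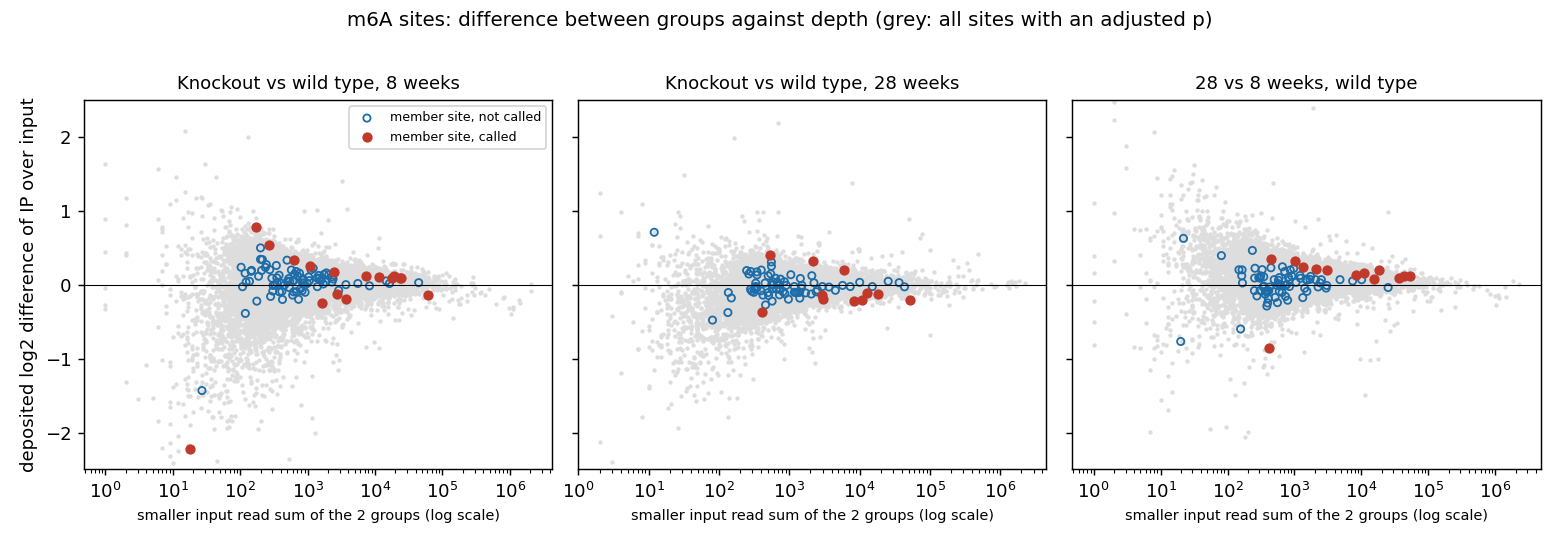
Deposited log2 difference of IP over input (vertical, cropped at 2.5 either way) against the smaller input read sum of the 2 groups (horizontal, log scale) for tested sites in the 3 site tables, with member sites circled or, where called, filled. Of the called member sites 10, 9 and 9 have at least 2000 input reads, and the Wtap site at -2.22 is the one called under 100 reads.

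At 28 weeks 11 of 84 tested member sites were called (13.1%), against 9.18% of all 18751 by the authors' deposited table, 3 higher and 8 lower in the knockout against 2.57% and 6.62%. On 1 scale 10 were called against 8.3% of all, 9 of the 11 among them, with all 11 signs kept. The 2 that were lost are Ythdc1 sites (adjusted p = 0.0772 and 0.085 on 1 scale). Mat1a had 3 of its 8 listed sites lower, at -0.13 ± 0.02 (adjusted p = 1.32e-08), -0.21 ± 0.03 (adjusted p = 2.12e-11) and -0.23 ± 0.03 (adjusted p = 2.17e-10), by the authors' deposited table. Ythdc1 also had 3 lower sites, at -0.15 ± 0.05 (adjusted p = 0.022), -0.20 ± 0.04 (adjusted p = 1.30e-04) and -0.36 ± 0.12 (adjusted p = 0.0275), by the authors' deposited table. Eif3a was lower as at 8 weeks, with 109059 IP over 54657 input reads in knockout and 125062 over 52178 in wild type (-0.21 ± 0.01, adjusted p = 6.09e-82), and 1 Gnmt site stood at -0.11 ± 0.03 (adjusted p = 0.00178), by the authors' deposited table. The 3 higher sites were 2 in Ahcy, at 0.33 ± 0.07 (1745 over 2591 against 1208 over 2187, adjusted p = 6.34e-05) and 0.20 ± 0.04 (adjusted p = 5.77e-05), and 1 in Cnot1, at 0.40 ± 0.13 (adjusted p = 0.0394), by the authors' deposited table. No site of the methyltransferase complex (15 tested), the stand-alone methyltransferases (4 tested) or the demethylases (9 tested) was called, and the deepest sites of Mettl3 (-0.08 ± 0.14), Mettl14 (0.03 ± 0.10), Wtap (-0.11 ± 0.07), Fto (-0.10 ± 0.08) and Alkbh5 (0.03 ± 0.06) lay within 0.11 of 0 by the authors' deposited table.

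With age in wild type 13 of 87 tested member sites were called (14.9%), against 11.3% of all 20628 by the authors' deposited table, 12 higher and 1 lower at 28 weeks against 9.06% and 2.2%. On 1 scale 12 were called against 8.28% of all, 10 of the 13 among them, and all 13 signs were kept. The rise was the common direction of called sites in the whole table as well. Mat1a had 4 called sites, between 0.07 ± 0.02 (adjusted p = 0.0167) and 0.20 ± 0.02 (adjusted p = 7.03e-22), and Gnmt 1 at 0.10 ± 0.02 (adjusted p = 4.39e-07), by the authors' deposited table. Among readers, 2 sites in Ythdc1 (0.34 ± 0.11 and 0.20 ± 0.04), Ythdf3 (0.32 ± 0.09), Fmr1 (0.22 ± 0.05), Eif3a (0.12 ± 0.01) and Hnrnpa2b1 (0.12 ± 0.01) were higher by the authors' deposited table. On 1 scale the 3 calls that were lost were all among these readers, both Ythdc1 sites (adjusted p = 0.271 and 0.406) and Fmr1 (adjusted p = 0.323), while Eif3a stood at 0.06 and Hnrnpa2b1 at 0.04. The demethylases went apart, with 1 Fto site higher (0.24 ± 0.08, 1483 IP over 1334 input reads at 28 weeks and 1232 over 1582 at 8 weeks, adjusted p = 0.0249) and 1 Alkbh5 site lower (-0.85 ± 0.16, 188 over 420 against 333 over 438, adjusted p = 8.97e-06), by the authors' deposited table. The Alkbh5 site was the largest difference among called members in this comparison, and the deepest Alkbh5 site stood at -0.03 ± 0.06 by the authors' deposited table.

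Site differences were set beside the RNA ratio of their gene, which comes from the same input libraries. Called member sites had the opposite sign to the RNA ratio in 15 of 16 cases at 8 weeks, 8 of 11 at 28 weeks and 9 of 13 with age in wild type. Over all called sites of genes with a ratio the share was 60.9% of 2715, 60.2% of 1647 and 63.4% of 2224. Over all 25209, 18341 and 20184 tested sites of such genes, Pearson's r between site difference and RNA ratio was 0.01, -0.04 and -0.06, a description over sites that share libraries and the input reads.

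By their wild-type read sums 13823 sites could be matched across the 3 tables, among them 37 sites of 20 members. The knockout difference at 28 weeks was tested against that at 8 weeks on counting error, a test added after the data were seen. It called 3 of 21 tested member sites, against 11.9% of all 6004 tested, and all 3 lie in Mat1a. Their level in wild type at 8 weeks, knockout at 8 weeks, wild type at 28 weeks and knockout at 28 weeks was -0.35, -0.27, -0.19 and -0.32 at the deepest site (32947 input reads in 8-week wild type). The next (24348 reads) had -0.88, -0.80, -0.69 and -0.89, and the last (17884 reads) -0.71, -0.56, -0.56 and -0.78. At each of the 3 the knockout level was above wild type at 8 weeks and below it at 28 weeks, but at the site with 24348 reads the 8-week difference passed no test (0.02 ± 0.02, adjusted p = 0.742, by the authors' deposited table). The knockout difference changed by -0.22 ± 0.03, -0.23 ± 0.04 and -0.33 ± 0.04 (adjusted p = 3.52e-13, 6.13e-08 and 9.43e-13, counting error only). On 1 scale for all sites the same 3 sites were called. Being sites of 1 transcript they share their reads' source and are not replicates. In 8-week wild type each had fewer IP than input reads, with 25373 over 32947 at the deepest. Whether they carry m6A above background was not tested. At each of the 3 the input sum was smaller in knockout than in wild type at 8 weeks and larger at 28 weeks. At the deepest it was 24417 against 32947 and then 23104 against 18096. The RNA ratio of Mat1a was -0.50 and 0.27 at the 2 ages, and the part of the input in these differences was not tested. The 2 matched Ahcy sites (-0.16 ± 0.08 and -0.08 ± 0.04) and the 3 matched Zc3h13 sites, of which the deepest changed by 0.04 ± 0.07, were not called. The 2 Ahcy sites called at 28 weeks were not among the matched sites and were not tested here.

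**Figure D5:**
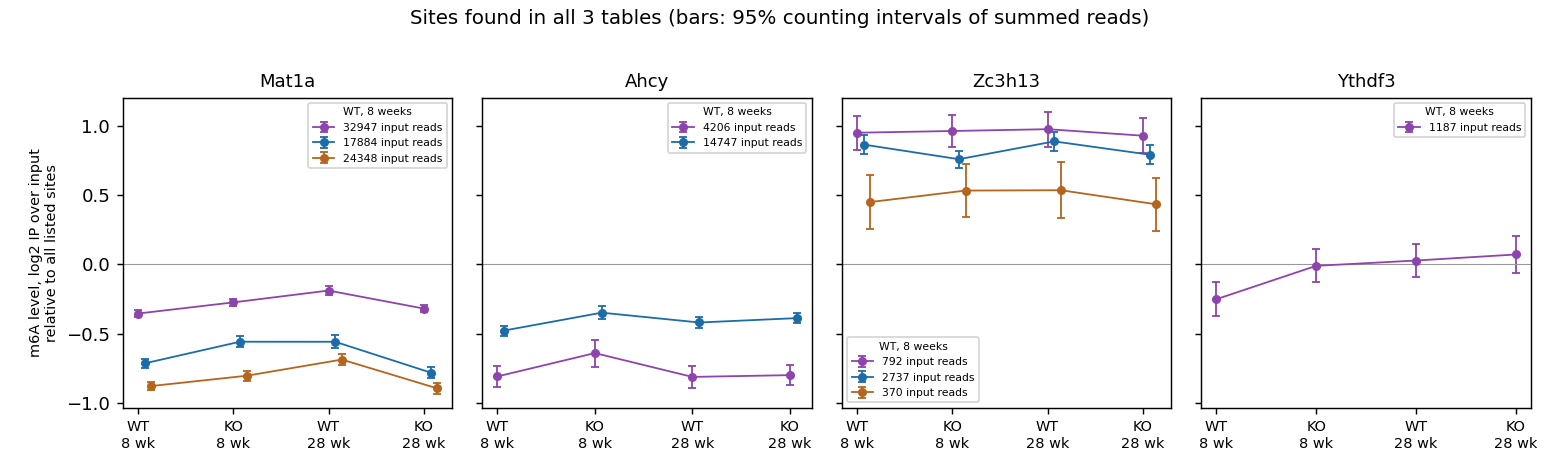
m6A levels (log2 IP over input relative to all listed sites) of matched sites of 4 members in the 4 groups, with 95% counting intervals of the summed reads; lines join the values of 1 site, and legends give its input reads in 8-week wild type. The 3 Mat1a sites lie above wild type in the 8-week knockout and below it in the 28-week knockout, for example -0.27 against -0.35 and then -0.32 against -0.19 at the deepest.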

How the data were processed

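RNA and m6A immunoprecipitation (IP) libraries of 12 mouse livers were analysed from tables with 1 row per gene or site and comparison; values per animal are not analysed here. HISAT2, StringTie and DESeq are named per the submitters' processing notes; genome build, site caller, site coordinates and versions were not given in the sources used here. Per gene the authors deposited a mean normalized count (a signal scaled by size factors), a log2 ratio with its SE, and a p-value with its adjusted p-value from DESeq2. Per site they deposited counts of IP and input reads summed over 3 animals, a log2 difference and p-values.

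RNA signs were turned so that positive means higher in knockout or at 28 weeks, and group means were derived from mean and ratio. The planned edgeR fit needs counts per library and was not made. The interaction is a Wald test of the difference of 2 deposited ratios, with Benjamini-Hochberg adjustment over 14278 genes. The m6A level adds 0.5 to each sum and scales by the totals of all listed sites. Site p-values hold counting error only. Sites were matched between tables by symbol and wild-type read sums. The knockout age site table (64907 rows, 0 with a mouse member symbol) was not used, and 4 columns could not be matched to a group. Calls use an adjusted p under 0.05; alternatives were thresholds of 0.01 and 0.1, no filter on low counts, centring, minimum input of 50 reads, a pseudocount of 1 and 1 scale for all sites.

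Members and lists were chosen with earlier results of these data known. Named are called members, the 3 highest and 3 lowest ratios per comparison, 9 core genes, the 4 highest and 4 lowest called sites, deepest sites, and up to 3 genes per other list, of which 1 gene is not reported here. Further called sites and near copies were named after their values were seen. Scripts were tested on simulated data and run in Python 3.11.15 with pandas 2.3.3, numpy 2.4.6, scipy 1.17.1 and matplotlib 3.10.9. P-values of RNA rest on the DESeq2 SE of a ratio between groups of 3 animals. No value per animal was at hand to show the spread within a group.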

Additional observations from a re-analysis of the deposited data

Results flagged for a closer look

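The knockout effect on Ahcy RNA differed between the ages, by 1.274 on the log2 scale (28 minus 8 weeks, adjusted p = 0.0175, Wald test on the DESeq2 SEs of 3 animals per group). The knockout effect on the m6A level differed between ages at 3 matched Mat1a sites, by -0.2152 (32947 input reads in 8-week wild type), -0.229 (24348 reads) and -0.3273 (17884 reads), in a test that holds counting error of the summed reads and no spread between animals. That test called 3 of 21 tested member sites, against 11.9% of all 6004 tested. The part of the input reads in the Mat1a differences was not tested. In 8-week wild type each of the 3 Mat1a sites had fewer IP than input reads, with 25373 over 32947 at the deepest. Whether these sites carry m6A above background was not tested.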

How the results depend on the processing

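No paired analysis was possible because the input and IP library of an animal share a number but the tables hold no value per library. Leaving out each replicate, as planned, was not run for the same reason. With an adjusted p under 0.01 the called members went from 1 to 0 at 8 weeks and from 1 to 0 for the interaction (Ahcy, -1.01 and 1.27, in both cases no longer past the threshold). With an adjusted p under 0.1 the knockout age comparison gave 2 members, as Gnmt (0.65) passed. No filter on low counts and centring changed no count of called members. With at least 50 input reads the median m6A level of member sites turned from 0.08 to -0.06 in the 28-week knockout and from 0.03 to -0.06 in 28-week wild type. Without scaling by totals that median went from 0.08 to 0.25 in the 28-week knockout and from 0.03 to 0.25 in 28-week wild type. At 8 weeks it went from 0.09 to 0.21 in knockout and from -0.01 to -0.03 in wild type. The distance between groups thus depends on the scaling. With no scaling 15 of the 16 called 8-week sites kept their sign, the exception being Zc3h13 (0.03). Member sites called ranged from 11 to 21 at 8 weeks, 8 to 13 at 28 weeks and 10 to 16 with age in wild type. The limits are 3 animals per group, site reads that are sums without animal error, and depth: at the median member site the 95% counting interval of the m6A level reached 0.25 to 0.281 to either side.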
